A study of Mus musculus with 34 samples.

Results

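The 52 cell cycle genes described here act in DNA replication and in mitosis. They were chosen by name from a list, with earlier results of these data known. All 52 were found among the 20613 genes with values. By textbook role they comprised 12 replication genes (Cdc6, Cdc45, Mcm2 to Mcm7, Pcna, Rrm1, Rrm2 and Tyms), 5 other genes of the G1 to S step (Ccne1, Ccne2, Cdt1, Gmnn and Tk1) and 35 mitotic genes. The study isolated astrocytes from mouse cortex with magnetic beads and sequenced their polyadenylated RNA in 34 libraries. All libraries came from wild-type males of 9 ages: 4 libraries each from postnatal days 7 (P7) and 14 (P14) and from 18 months (18m), 3 each from P21, P28, P60 and 12m, and 5 each from 3m and 6m. The labels name no treatment. Bead isolation enriches for a cell type and can leave other cells in the isolate. Nothing in the labels says that libraries of an age came from separate mice, so p-values measure only the spread between these libraries, which may be technical. Levels are in TPM, a share of all transcripts corrected for gene length, so levels of different genes can be compared.

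A dividing cell first copies its DNA and then separates the copies. The MCM proteins form the helicase that opens DNA at origins, Cdc6 and Cdt1 load it, Cdc45 joins the active form, Pcna is the clamp that holds the polymerase, and Rrm1, Rrm2, Tyms and Tk1 supply deoxynucleotides. Cyclin-dependent kinase 1 (Cdk1) with its cyclins then drives entry into mitosis, where kinetochores, spindle motors and condensins move the chromosomes until the anaphase-promoting complex ends the phase. In the rodent cortex astrocytes multiply locally after birth, and most later leave the cell cycle. Many mitotic genes share a promoter element called CHR with CCAAT boxes bound by NF-Y, and many replication genes carry E2F sites.

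Most members followed 1 outline over life. The mean level was highest at P7 in 51 of the 52 genes, the exception being Cdc6, whose P7 mean of 3.36 ± 1.04 TPM (SD, n = 4) lay below its 3m mean of 3.50 ± 0.711 (SD, n = 5). The next highest mean was at 3m in 48 genes, among them all 35 mitotic genes. It was at 6m in Ccne2 and Cdc45, at 18m in Pcna and at P7 in Cdc6. The lowest mean fell at P60 in 25 genes, at 18m in 18, at P21 in 8 and at 12m in 1, Tpx2. All 52 changed over the 9 ages by the limma F test (Benjamini-Hochberg adjusted p under 0.05, the threshold for every call here), against 63.6% of the 14590 genes tested. The smallest adjusted p was that of Aurkb (1.17e-11) and the largest that of Mcm4 (0.0449). In bulk RNA, fewer dividing cells and less of each transcript per cell cannot be told apart.

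**Figure D1:**
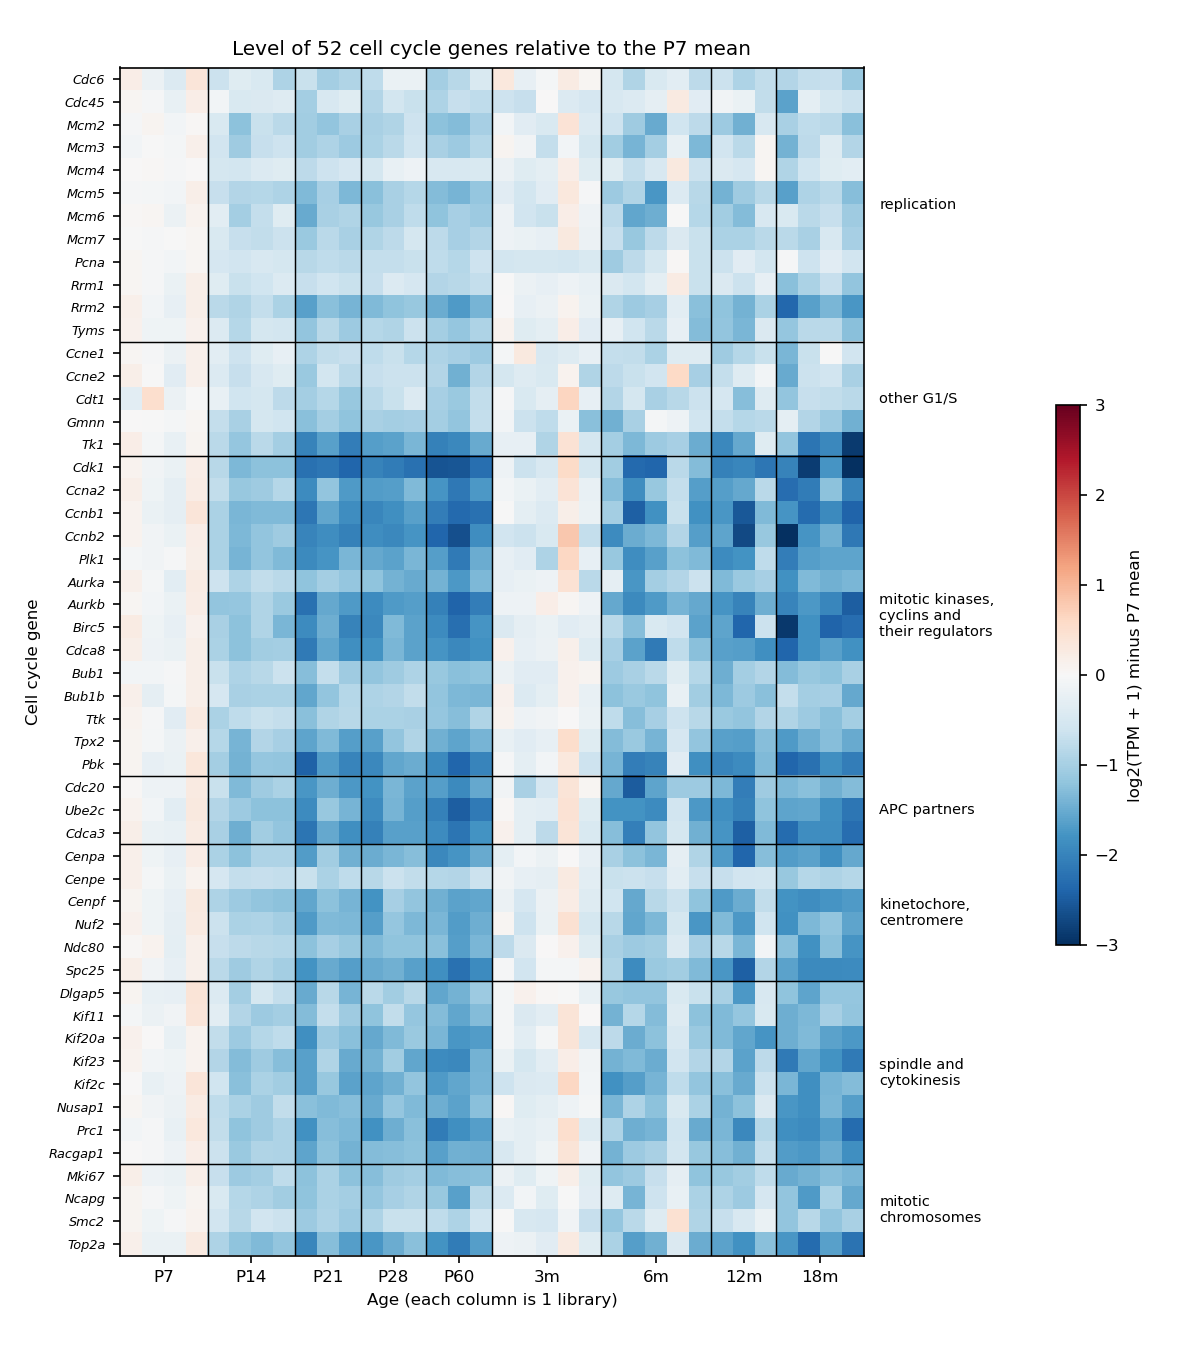
Level of the 52 cell cycle genes (rows, grouped by role) in the 34 libraries (columns, grouped by age) as log2(TPM + 1) minus the gene's P7 mean. Dark blue cells (lower than P7) lie mostly in mitotic kinase and cyclin rows from P21 to P60 and at 18m, and the 5 libraries of 3m are close to the P7 level.

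The depth of the mitotic fall was larger than that of replication genes. As a share of the P7 mean, the median mitotic gene stood at 43.8% at P14, 28.4% at P21, 30.0% at P28 and 22.3% at P60. It stood at 89.5% at 3m, 40.0% at 6m, 31.8% at 12m and 22.6% at 18m. The median replication gene stood at 64.7% at P14, 46.8% at P21, 57.3% at P28 and 47.6% at P60, and at 88.7% at 3m, 57.3% at 6m, 51.8% at 12m and 51.3% at 18m. In both classes the medians at P60 and at 18m were close to each other, and that of the mitotic genes was the lower at each age but 3m, where it was 89.5% against 88.7%. Within the mitotic genes the extremes at 18m were Mki67 (11.0%) and Smc2 (47.0%). Within the replication genes they were Rrm2 (27.7%) and Pcna (77.1%).

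The sum over the 35 mitotic genes was 468 ± 70.4 TPM (SD, n = 4) at P7, 114 ± 15.8 (SD, n = 3) at P60, 419 ± 92.1 (SD, n = 5) at 3m and 116 ± 10.9 (SD, n = 4) at 18m. The sum over the 12 replication genes was 337 ± 23.3 TPM (SD, n = 4) at P7, 175 ± 11.1 (SD, n = 3) at P60, 278 ± 29.0 (SD, n = 5) at 3m and 198 ± 20.3 (SD, n = 4) at 18m. The mitotic sum was therefore above the replication sum at P7 and 3m and below it at P60 and 18m. The mean log2(TPM + 1) of replication genes exceeded that of mitotic genes at P7 by 0.99 ± 0.08 (SD, n = 4), and at 3m by 0.94 ± 0.09 (SD, n = 5). The same difference was 1.33 ± 0.04 (SD, n = 4) at P14, 1.67 ± 0.09 (SD, n = 3) at P60, 1.43 ± 0.07 (SD, n = 5) at 6m and 1.73 ± 0.11 (SD, n = 4) at 18m. Across libraries it ran from 0.80 to 1.07 at P7 and 3m together and from 1.27 to 1.82 at the other ages. The ranges did not overlap, and no p is given for a score over chosen genes.

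**Figure D2:**
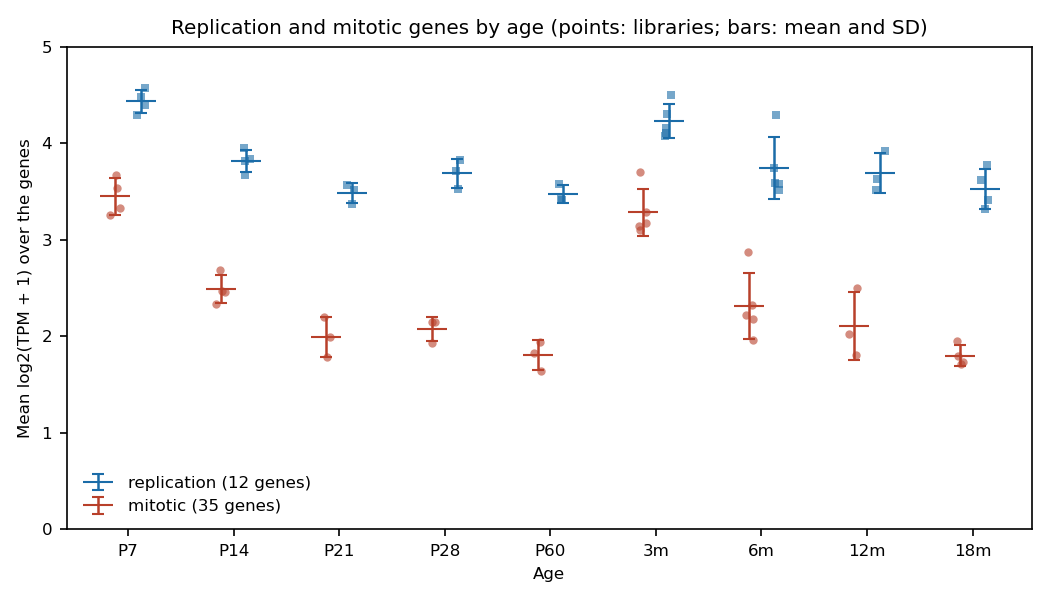
Mean log2(TPM + 1) of the 12 replication genes (blue squares) and the 35 mitotic genes (red circles) in each library by age, with the mean and SD per age. The mitotic mean falls from 3.45 at P7 to 1.80 at P60, is 3.29 at 3m and ends at 1.80 at 18m, and the gap to the replication mean is narrowest at P7 and 3m.

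The promoters of the 2 classes were set side by side because their genes moved together but by different amounts. RefSeq windows of 300 bases (250 before the transcription start and 50 after, build GRCm38.p6) were found for 43 of the 52 members, 45 windows in all. The words searched on both strands were TTTGAA and TTTAAA for CHR, CCAAT for the CCAAT box and TTTCCCGC, TTTCGCGC, TTTGCCGC and TTTGGCGC for E2F. The 200 bases before the start of 4 mitotic and 3 replication genes, 5′ to 3′ on the gene's strand, are printed as examples and do not stand for their class. Capitals mark any of these words on either strand. The first 4 are mitotic (Cdk1 chr10:69352913-69353112, minus strand; Top2a chr11:99024190-99024389, minus; Plk1 chr7:122159235-122159434, plus; Mki67 chr7:135716380-135716579, minus).
Cdk1: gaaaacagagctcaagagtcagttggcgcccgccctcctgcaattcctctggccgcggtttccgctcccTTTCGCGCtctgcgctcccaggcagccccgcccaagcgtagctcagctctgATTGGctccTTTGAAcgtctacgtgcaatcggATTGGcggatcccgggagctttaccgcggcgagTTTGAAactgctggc
Top2a: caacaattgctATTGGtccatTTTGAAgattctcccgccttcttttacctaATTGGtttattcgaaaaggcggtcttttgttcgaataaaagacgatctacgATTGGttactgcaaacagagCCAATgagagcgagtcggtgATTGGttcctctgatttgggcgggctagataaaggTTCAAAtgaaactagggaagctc
Plk1: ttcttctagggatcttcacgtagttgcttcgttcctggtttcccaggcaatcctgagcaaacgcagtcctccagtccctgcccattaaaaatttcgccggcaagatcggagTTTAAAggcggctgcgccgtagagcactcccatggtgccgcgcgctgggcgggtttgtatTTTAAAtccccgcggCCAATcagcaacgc
Mki67: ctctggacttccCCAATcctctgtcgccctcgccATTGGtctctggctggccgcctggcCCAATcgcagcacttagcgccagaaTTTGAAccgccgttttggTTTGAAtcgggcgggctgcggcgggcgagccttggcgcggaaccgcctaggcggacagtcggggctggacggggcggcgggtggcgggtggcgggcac

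The 3 replication promoters were those of Rrm2 (chr12:24708054-24708253, plus strand), Mcm5 (chr8:75109309-75109508, plus) and Mcm6 (chr1:128359706-128359905, minus).
Rrm2: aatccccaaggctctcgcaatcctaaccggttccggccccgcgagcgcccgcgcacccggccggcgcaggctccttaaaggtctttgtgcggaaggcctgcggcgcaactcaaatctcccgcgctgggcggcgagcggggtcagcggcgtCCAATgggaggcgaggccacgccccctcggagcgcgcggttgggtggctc
Mcm5: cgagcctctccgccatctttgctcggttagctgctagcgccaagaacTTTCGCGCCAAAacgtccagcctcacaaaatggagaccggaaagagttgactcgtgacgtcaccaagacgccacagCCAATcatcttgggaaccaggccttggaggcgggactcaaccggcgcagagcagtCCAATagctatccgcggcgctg
Mcm6: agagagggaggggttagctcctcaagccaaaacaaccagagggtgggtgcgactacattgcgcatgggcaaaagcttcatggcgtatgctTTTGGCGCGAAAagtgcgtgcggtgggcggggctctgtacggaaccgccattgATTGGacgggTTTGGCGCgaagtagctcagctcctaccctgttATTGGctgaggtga

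In these stretches each of the 4 mitotic promoters held 2 CHR words and from 1 to 5 CCAAT boxes. This is not typical of the class. Of the other mitotic windows only that of Kif2c held 2 CHR words before the start. In Aurka, Bub1b, Cdca3, Cdca8, Cenpe, Kif23, Ndc80, Racgap1, Spc25 and Ttk every CHR word lay after the start. In Cdk1 the CHR words began 71 and 15 bases before the start. The Mcm5 and Mcm6 stretches each held a pair of E2F words that began 4 bases apart on opposite strands and so overlap, 153 and 149 bases before the start in Mcm5 and 110 and 106 in Mcm6. The 3 replication stretches held no CHR word, though the windows of 300 bases held 1 each in Mcm5, 221 bases before the start, and in Rrm2, beginning at the start. Over all windows of 300 bases, a CHR word was present in 27 of 30 mitotic promoters (90%), in 4 of 12 replication promoters (33.3%) and in 27.6% of all 32851 promoters in the table. The mitotic promoters without it were those of Bub1, Nuf2 and Nusap1. A CCAAT box was present in 83.3% of the promoters of either class against 37.4% of all promoters. An E2F word was present in 5 of 12 replication promoters (41.7%), 2 of 30 mitotic promoters (6.67%) and 2.26% of all promoters. Among the 14768 promoters of genes tested, the shares were 19.8% for CHR, 37.6% for the CCAAT box and 3.62% for E2F. A match is a run of letters and was not tested for binding. No entry was used for Aurkb, Ccna2, Ccne2, Dlgap5, Gmnn, Kif20a, Mcm4, Pbk and Tpx2.

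**Figure D3:**
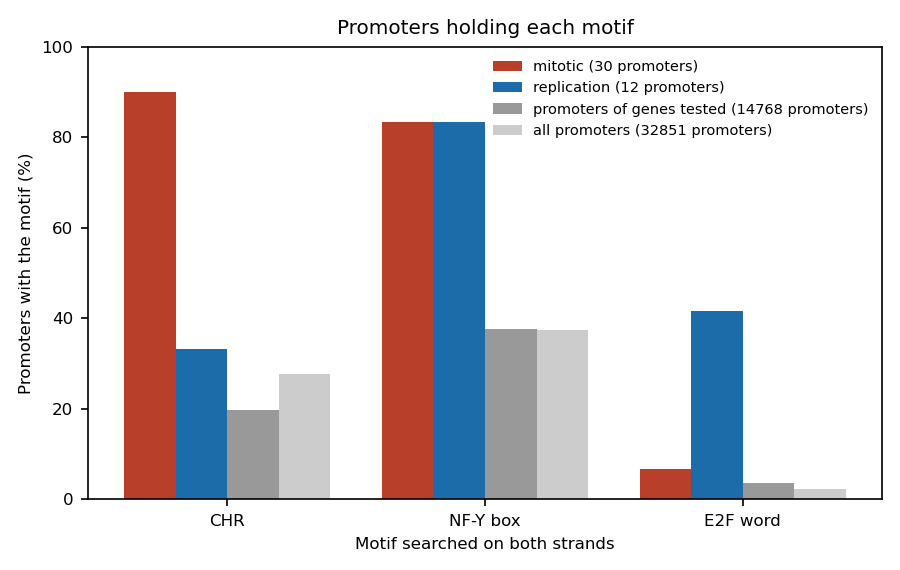
Share of promoter windows (%) that hold at least 1 CHR, CCAAT (labelled NF-Y box) or E2F word, for the 30 mitotic and 12 replication promoters, the 14768 promoters of genes tested and all 32851 promoters. CHR is at 90% in mitotic and 33.3% in replication promoters, and the CCAAT box is at 83.3% in each.

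The library files differed in how many genes were listed at 0, and this split ran partly with age. The number was between 4109 and 4819 in every library of P7, P14 and 18m and in libraries 1 and 2 of 12m, between 2854 and 3523 at P21, P28 and P60, and between 1155 and 1704 at 3m and 6m and in library 3 of 12m. TPM keep no read depth, so depth is unknown. P14 vs P7, 18m vs P7, 18m vs P14 and 6m vs 3m lie within 1 range each. P21 vs P14, P60 vs P7, 3m vs P60, 3m vs P7, 18m vs 3m, 18m vs 6m and 18m vs P60 cross ranges, and the comparisons with 12m are mixed. The mean log2(TPM + 1) over 10 astrocyte markers lay between 8.81 and 9.77 in all 34 libraries, and none was at 0. Library 4 of 3m was the highest of its age in 38 of the 52 members, library 4 of 6m in 44 and library 3 of 12m in 44. The median SD of the members in log2 units was 0.19 at P7, 0.29 at 3m, 0.40 at 6m and 0.37 at 12m.

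The first question was how far the cell cycle genes fell between P7 and P14. Of the 52 members, 45 fell from P7 to P14 and none rose, where 8.57% of all genes tested fell (limma on log2(TPM + 1)). All 35 mitotic genes fell, with a median log2 fold change of -0.96, against -0.10 over all genes tested. Of the replication genes 9 of 12 fell, with a median of -0.60, and Cdc45, Mcm4 and Mcm6 did not pass. Of the other G1 to S genes 1 of 5 fell, Tk1, the salvage kinase for thymidine. Without library 4 of P7, which was the highest of its age in 40 members, 29 members were called. The share of all genes called in that run is not given here.

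Cdk1, the kinase of mitotic entry (chr10:69335146-69352938, GRCm38), was at 35.9, 30.9, 29.1 and 38.6 TPM in the P7 libraries and at 18.3, 12.5, 13.7 and 13.6 in those of P14. The groups did not overlap, and the P14 mean was lower by 2.32-fold (log2 fold change -1.16 ± 0.30 SE, limma adjusted p = 0.0154). Ccnb1, the cyclin that activates Cdk1, had the deepest fall of the step on the log2 scale (-1.25 ± 0.26 SE, adjusted p = 0.00534 by limma). Cdc45 had the smallest difference, -0.34 ± 0.21 SE (adjusted p = 0.28 by limma), and was not called.

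The next step, P14 to P21, moved fewer members past the threshold. Of the 52, 7 fell (Rrm2, Tk1, Aurkb, Cdca8, Cdk1, Pbk and Spc25), which is 1 replication, 1 other and 5 mitotic genes, where 7.59% of all genes tested fell. The fold changes of all 52 lay below 0, with a median of -0.43. The count was 0 without library 1 of P21, and it was from 1 to 4 without any other library of these ages save library 2 of P14 (5). It was 16 with the count of genes at 0 as a covariate, 21 with quantile scaling and 21 with only these ages in the model. The share of all genes called in those runs is not given here, so these counts are not set against it. Erythroid markers rose in 5 of 6 cases in this step, where 817 of the 14590 genes tested rose. The part of erythroid cells in the result was not tested. Cdk1 reached 6.35, 6.61 and 5.66 TPM at P21, below each P14 library. From P21 to P28 no member was called by limma (backgrounds 0% lower and 0.0206% higher), with 1 member, Cdc6, higher at an unadjusted p under 0.05. From P28 to P60 no member was called by limma either (0.905% lower and 0.212% higher), with Aurkb the 1 member lower at an unadjusted p under 0.05.

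The comparison of P60 with P7 spans development. It shares the P7 libraries with the preceding step, and the later comparisons share those of P60 and 3m, so they are not independent. P60 and P7 lie in different ranges of genes at 0, and with that count as a covariate 50 members fell. The share of all genes called in that run is not given here, so the 50 is not set against it. In the main run all 52 members fell, where 33.3% of all genes tested fell and 19.5% rose. The median log2 fold change was -1.60 over the mitotic genes, -0.93 over the replication genes, -1.01 over the other G1 to S genes and -0.15 over all genes tested. Within the mitotic genes, the 14 kinases, cyclins and their regulators had a median of -1.86, the 3 partners of the anaphase-promoting complex -1.96, the 8 spindle and cytokinesis genes -1.53, the 6 kinetochore and centromere genes -1.52 and the 4 mitotic chromosome genes -1.25. The replication genes ranged from Mcm4 (-0.47, adjusted p = 0.0276 by limma) to Rrm2 (-1.53).

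Cdk1 stood at 4.69, 4.79 and 6.17 TPM at P60. This was 6.45-fold below P7 (log2 fold change -2.48 ± 0.32 SE, limma adjusted p = 6.75e-06), the deepest fall on the log2 scale. By the ratio of means Ccnb2, another cyclin of Cdk1, fell further, 6.86-fold.

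Ube2c, the ubiquitin-conjugating enzyme of the anaphase-promoting complex (chr2:164769898-164778822, GRCm38), was at 44.3, 38.9, 33.0 and 50.3 TPM at P7 and at 9.33, 6.64 and 8.71 at P60. Every P60 library lay below every P7 library (log2 fold change -2.20 ± 0.26 SE, limma adjusted p = 2.92e-06). Cenpa, the histone variant that marks centromeres (chr5:30666777-30674830, GRCm38), was at 24.6, 20.0, 18.3 and 25.6 TPM at P7 and at 4.97, 5.71 and 7.07 at P60. Its mean was lower by 3.74-fold (-1.74 ± 0.21 SE in log2 units, limma adjusted p = 3.68e-06).

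Prc1, which bundles microtubules in the central spindle (chr7:80294450-80316259, GRCm38), was at 16.7, 17.2, 15.1 and 22.3 TPM at P7 and at 3.35, 4.19 and 4.90 at P60, again without overlap (4.30-fold lower, limma adjusted p = 5.24e-06). Top2a, which untangles sister chromatids (chr11:98992943-99024189, GRCm38), was at 13.4, 10.3, 10.4 and 14.6 TPM at P7 and at 2.78, 2.03 and 3.12 at P60. It was 4.60-fold lower (limma adjusted p = 4.48e-06).

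Mki67, the surface protein of mitotic chromosomes that is widely used as a proliferation marker (chr7:135689784-135716361, GRCm38), had low TPM at every age. It was at 2.71, 1.96, 1.88 and 2.73 TPM at P7 and at 0.309, 0.351 and 0.372 at P60. The ratio of means was 6.74, while the log2 fold change of TPM + 1 was -1.29 ± 0.18 SE (limma adjusted p = 1.42e-05), since the added 1 compresses changes at low levels. Smc2, a condensin subunit (chr4:52439243-52488260, GRCm38), was the mitotic gene with the smallest fall. It was at 32.2, 27.7, 29.6 and 32.8 TPM at P7 and at 17.5, 15.7 and 20.0 at P60 (1.73-fold lower, limma adjusted p = 0.00632).

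Pcna, the polymerase clamp (chr2:132249162-132253314, GRCm38), had the highest mean TPM of all members. It was at 112, 105, 102 and 112 TPM at P7 and at 63.5, 59.0 and 70.2 at P60, lower by 1.68-fold without overlap (-0.74 ± 0.15 SE in log2 units, limma adjusted p = 0.000367). Rrm2, the S phase subunit of ribonucleotide reductase (chr12:24708241-24714146, GRCm38), was at 36.2, 30.8, 27.3 and 37.3 TPM at P7 and at 11.0, 9.32 and 11.9 at P60 (log2 fold change -1.53 ± 0.18 SE). Gmnn, geminin, which holds Cdt1 back after origins have fired (chr13:24751845-24761923, GRCm38), was at 20.6, 20.2, 19.5 and 21.4 TPM at P7 and at 9.53, 8.36 and 12.0 at P60 (2.05-fold lower, limma adjusted p = 0.00321). As a share of the P7 mean, Pcna stood at 59.6%, Gmnn at 48.8% and Rrm2 at 32.6% at P60.

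**Figure D4:**
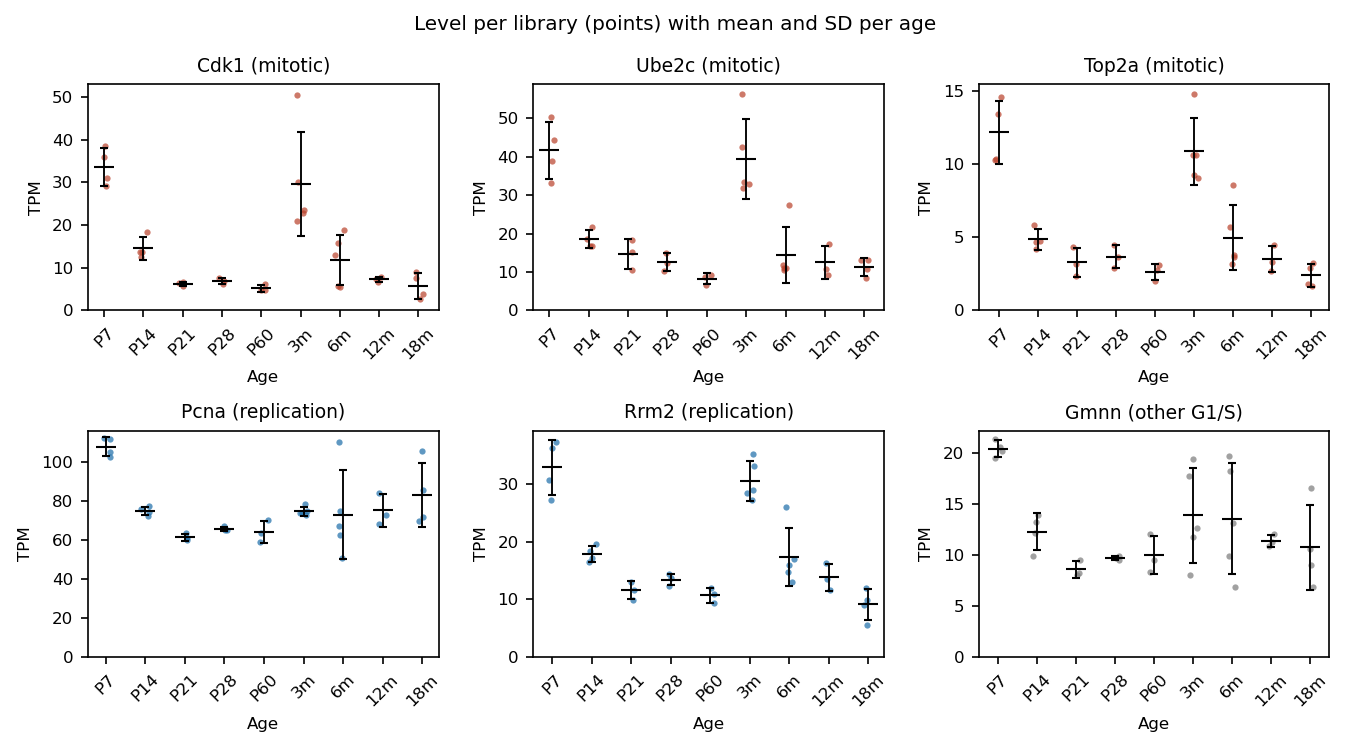
TPM of Cdk1, Ube2c, Top2a, Pcna, Rrm2 and Gmnn in each library (points) by age with the mean and SD. Cdk1 has means of 33.6 at P7, 5.21 at P60, 29.6 at 3m and 5.76 at 18m, while Pcna stays between 61.4 and 83.2 at every age after P7.

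The comparison of 3m with P60 asks whether the low level of P60 lasted. Of the 52 members 46 rose and none fell, where 8.26% of all genes tested rose and 1.93% fell. Of the mitotic genes 34 of 35 rose (median log2 fold change 1.47, all genes 0.12), the exception being Smc2. Of the replication genes 9 of 12 rose (median 0.81), and Cdc45, Mcm4 and Pcna were not called. Of the other G1 to S genes Ccne1, Cdt1 and Tk1 rose, and Ccne2 and Gmnn were not called. When the count of genes at 0 was added as a covariate, 27 of the 52 were called, where 1.51% of all genes rose. No library of 3m shares its range of genes at 0 with a library of P60, so age and this range cannot be told apart in the deposited values.

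Cdk1 was at 30.2, 20.9, 23.6, 50.5 and 22.9 TPM in the 3m libraries, 5.68-fold above P60 (log2 fold change 2.23 ± 0.31 SE, limma adjusted p = 1.99e-05). Library 4 was the highest and the lowest library was still above every P60 library. Aurkb, the kinase of the chromosomal passenger complex (chr11:69045647-69051664, GRCm38), was at 14.9, 14.9, 19.4, 17.5 and 14.8 TPM at 3m and at 3.36, 2.35 and 3.19 at P60. It had the smallest adjusted p of the members in this comparison (8.51e-10 by limma, log2 fold change 2.13 ± 0.17 SE).

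Ube2c was at 42.4, 33.3, 32.9, 56.3 and 31.7 TPM at 3m (log2 fold change against P60 2.11 ± 0.24 SE, limma adjusted p = 2.19e-06). Rrm2 was at 33.1, 27.2, 28.9, 35.3 and 28.5 TPM at 3m, 2.85-fold above P60 (limma adjusted p = 3.84e-06). Pcna was at 72.7, 73.9, 74.7, 73.8 and 78.7 TPM at 3m, each above the highest P60 library, yet the log2 fold change of 0.22 ± 0.14 SE was not called (limma adjusted p = 0.344). Gmnn was at 19.4, 12.6, 11.7, 17.8 and 8.01 TPM at 3m, a range that took in all P60 libraries. Without library 4 of 3m, 44 members were called, again without the share over all genes in that run.

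At 3m, which lies in another range of genes at 0 than P7, few members differed from P7. Only Pcna was called, lower by 1.44-fold at 3m (-0.52 ± 0.13 SE in log2 units, limma adjusted p = 0.00416), where 9.68% of all genes tested fell. At an unadjusted p under 0.05, Cdc45 and Gmnn were also lower. The median log2 fold change was -0.16 over the mitotic genes and -0.18 over the replication genes. Aurkb had means of 16.3 TPM at 3m and 16.8 at P7 (log2 fold change -0.04 ± 0.15 SE, limma adjusted p = 0.874). A missed threshold does not show that the ages were alike.

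**Figure D5:**
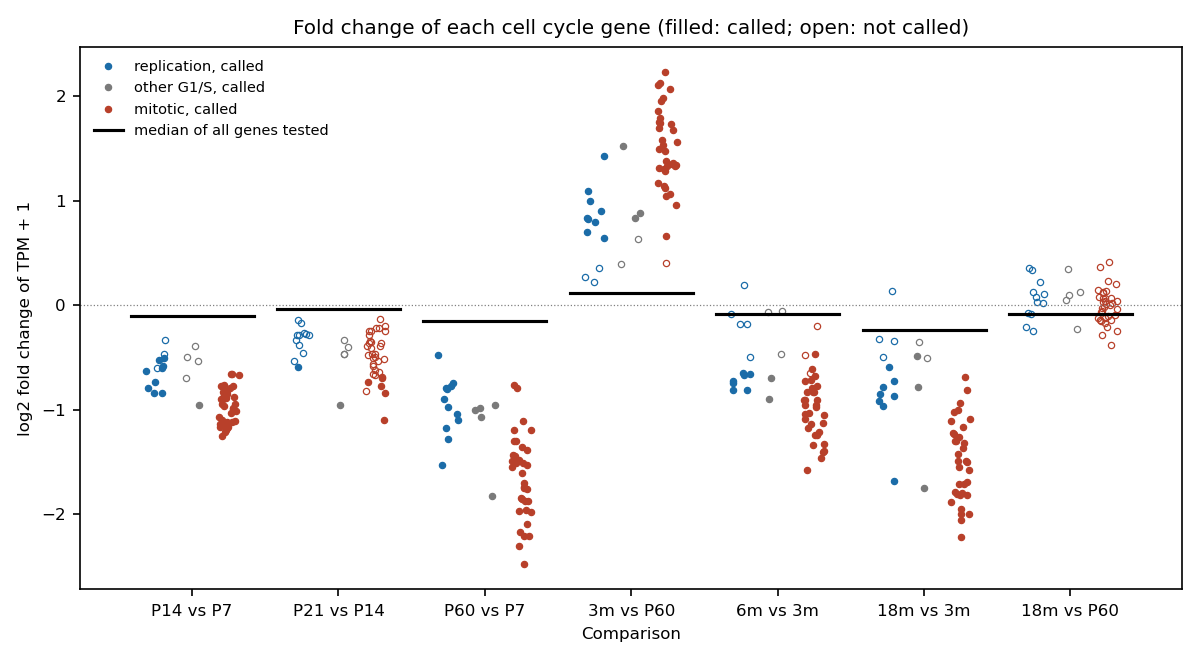
Log2 fold change of TPM + 1 of each member in 7 comparisons (filled points called, open points not called; blue replication, grey other G1 to S, red mitotic), with the median of all genes tested as a black line. The median of the mitotic points is farther from 0 than that of the replication points in P60 vs P7, 3m vs P60 and 18m vs 3m, and no point is called in 18m vs P60.

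From 3m to 6m, 41 of the 52 members fell and none rose, where 7.25% of all genes tested fell. Of the mitotic genes 32 of 35 fell (median log2 fold change -0.95, all genes -0.08), and Birc5, Ncapg and Smc2 were not called. Of the replication genes 7 of 12 fell (median -0.65), and Cdc45, Mcm4, Pcna, Rrm1 and Tyms were not called. Of the other 5, Cdt1 and Tk1 fell. The call depends on the spread being shared with the other ages: with only the 2 ages in the model 1 member was called, where 0.0343% of all genes fell. With library 4 of both ages left out together, 38 members fell, a count given without the share over all genes in that run.

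Aurkb was at 5.11, 3.71, 4.46, 5.73 and 5.14 TPM at 6m, all below the lowest 3m library (a 3.38-fold fall, -1.57 ± 0.14 SE in log2 units, limma adjusted p = 8.55e-08). Ube2c was at 11.1, 11.1, 10.4, 27.5 and 11.8 TPM, with library 4 apart from the others (log2 fold change -1.46 ± 0.21 SE, limma adjusted p = 0.000278). Cdk1 was at 15.7, 5.80, 5.61, 18.8 and 12.9 TPM, so that libraries 2 and 3 were near the P60 level and the others were not. Pcna was at 50.6, 62.4, 74.9, 111 and 67.0 TPM, a spread that enclosed all libraries of 3m. Library 4 of 6m was the highest of its age in all 12 replication genes. The mean log2(TPM + 1) over 10 endothelial markers was 6.47 in that library, 6.38 in library 5 and from 3.71 to 5.59 in the other 6m libraries. Library 4 was also the highest of its age in the means of ependymal (6.79), erythroid (7.75), neuroblast (1.76) and oligodendrocyte precursor (4.11, with library 1 next to it) markers. The part of these cells in the result was not tested.

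The comparison of 18m with 3m covers adult aging. Of the 52 members 46 fell and none rose, where 33.4% of all genes tested fell and 4.16% rose. All 35 mitotic genes fell (median log2 fold change -1.49, all genes -0.24), as did 8 of 12 replication genes (median -0.75) and Ccne1, Cdt1 and Tk1. Cdc45, Mcm4, Mcm6, Pcna, Ccne2 and Gmnn were not called. The 2 ages lie in different ranges of genes at 0. With that number as a covariate 6 members were called, where 1.56% of all genes fell, and the median over the members was -0.68. The 1 age with libraries in more than 1 range was 12m. There the mean log2(TPM + 1) of the mitotic genes was 2.50 in library 3, which lies in the range of 3m. It was 2.03 and 1.80 in libraries 1 and 2, which lie in the range of 18m. What set library 3 apart was not tested.

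Cdk1 was at 7.52, 3.81, 9.02 and 2.69 TPM at 18m, 5.14-fold below 3m (log2 fold change -2.22 ± 0.28 SE, limma adjusted p = 4.07e-06). Birc5, survivin of the chromosomal passenger complex, was at 12.0, 13.7, 14.5, 13.0 and 13.5 TPM at 3m and at 1.35, 4.02, 2.31 and 2.60 at 18m (5.19-fold lower, limma adjusted p = 2e-06). Mki67 was at 1.90, 1.58, 1.99, 2.75 and 1.57 TPM at 3m and at 0.162, 0.225, 0.369 and 0.267 at 18m, a ratio of means of 7.65.

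Cenpa was at 17.7, 20.5, 19.2, 22.2 and 18.3 TPM at 3m and at 6.22, 6.58, 5.40 and 6.97 at 18m (3.11-fold lower, adjusted p = 2e-06 by limma). Prc1 was at 14.9, 14.2, 14.9, 25.6 and 13.2 TPM at 3m and at 4.25, 4.03, 4.92 and 2.77 at 18m (4.15-fold lower, adjusted p = 1.45e-06 by limma). Smc2 was at 30.2, 21.7, 21.2, 28.1 and 18.4 TPM at 3m and at 12.8, 16.7, 12.8 and 15.0 at 18m (1.67-fold lower, adjusted p = 0.00764 by limma). The groups did not overlap in any of these genes. With genes at 0 as a covariate the adjusted p by limma was 0.147 for Cenpa, 0.148 for Prc1, 0.672 for Smc2 and 0.118 for Mki67.

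Rrm2 was at 5.60, 9.96, 12.0 and 9.0 TPM at 18m, 3.35-fold below 3m (log2 fold change -1.68 ± 0.16 SE). Pcna was at 106, 69.7, 85.5 and 71.8 TPM at 18m, on either side of the 3m libraries (log2 fold change 0.13 ± 0.13 SE, limma adjusted p = 0.442). With median-of-ratios rescaling Pcna was called higher at 18m (log2 fold change 0.38, adjusted p = 0.0378 by limma). Rrm2 and Pcna, both replication genes, were thus on opposite sides of their 3m level in means.

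The steps between 6m and 18m were examined next. From 6m to 12m no member was called by limma (0.0206% of all genes lower and 0.0343% higher). At an unadjusted p under 0.05 Birc5, Cdca3, Cenpa, Kif20a and Tpx2 were lower and Mcm3 was higher. From 12m to 18m 7 members fell (Rrm1, Rrm2, Birc5, Kif23, Ndc80, Nusap1 and Racgap1), where 18.6% of all genes tested fell. With the replicate block 13 fell, where 24.4% of all genes did, and without library 3 of 12m none was called. From 6m to 18m 22 fell, 19 of them mitotic, where 17.7% of all genes fell. That count was 0 with genes at 0 as a covariate. Birc5 had the deepest fall of that step (3.32-fold, log2 fold change -1.41 ± 0.25 SE, limma adjusted p = 0.00155).

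The oldest libraries were set against other ages of low and high levels. Against P60, another range of genes at 0, no member was called at 18m by limma, where 10.2% of all genes tested were lower and 3.63% higher. At an unadjusted p under 0.05 only Pcna was higher. The median log2 fold change over the 52 was 0.03. Against P7, in the same range of genes at 0, all 52 were lower at 18m, where 24.9% of all genes were. The median was -1.66 over the mitotic and -0.86 over the replication genes. Cdk1 was 5.84-fold lower and Pcna 1.30-fold lower (limma adjusted p = 0.0335), the extremes of that comparison by log2 fold change. Against P14, also in that range, 14 members were lower at 18m, 12 of them mitotic, where 2.02% of all genes were.

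Other genes of the pathway, taken from lists written by role, were counted the same way. Over all genes tested, 33.3% fell and 19.5% rose from P7 to P60, and 8.26% rose and 1.93% fell from P60 to 3m. From 3m, 7.25% fell to 6m, and 33.4% fell and 4.16% rose to 18m. Of 41 further mitotic genes tested, 36 fell and 2 rose from P7 to P60, 28 rose and 1 fell from P60 to 3m, 18 fell from 3m to 6m and 35 fell from 3m to 18m. The genes that ran against the rest were Cit, the citron kinase, which was at 4.59 TPM at P7 and 15.1 at P60, and Pttg1, securin, which was at 305 TPM at P7, 400 at P60 and 308 at 3m. Of 37 further replication fork and origin genes, 29 fell from P7 to P60, 9 rose to 3m, 5 fell to 6m and 13 fell from 3m to 18m. The last count is near the share over all genes, 33.4%. Of 22 G1 cyclins, CDKs and E2F or DREAM regulators, 14 fell and 1 rose (Lin52) from P7 to P60, 9 rose to 3m, 2 fell and 1 rose (E2f5) from 3m to 6m, where 7.25% of all genes fell, and 13 fell and 1 rose (Lin37) from 3m to 18m. Ccnd2, a G1 cyclin, averaged 313 TPM at P7, 144 at P60, 274 at 3m and 102 at 18m. Foxm1, the activator of many mitotic genes, averaged 4.36, 1.25, 3.95 and 0.930 TPM at the same ages.

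The genes most like the members were found by Pearson correlation of log2(TPM + 1) with the mean of each class over the 34 libraries, which share ages. For the mitotic mean these were Ckap2l (r = 0.973), Kif18b, Pclaf, Knstrn, Kif22, Hmgn2, Spc24, Ncaph, Pimreg and Smc4 (r = 0.942). For the replication mean they were Ckap2l (r = 0.949), Smc4, Sncaip, Jpt2, Hmgn2, Ect2, Ncaph, Knstrn, Kif22 and Neil3 (r = 0.924). Among the replication genes themselves, r with the mitotic mean was 0.534 for Cdc45, 0.546 for Pcna and 0.717 for Mcm4, the lowest, and 0.941 for Mcm7 and 0.964 for Rrm2, the highest.

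Markers listed for several cell types moved with some of these changes. Of 9 tested markers of neural stem and transit-amplifying cells, among them Tnc and Fabp7, 7 fell and 1 rose from P7 to P60, 5 rose from P60 to 3m, 2 fell from 3m to 6m and 4 fell from 3m to 18m. Their mean log2(TPM + 1) per library was from 5.12 to 5.19 at P7, 4.15 to 4.24 at P60, 4.73 to 5.26 at 3m and 3.94 to 4.52 at 18m, and 1 of the 10 listed genes averaged under 1 TPM at each of these ages. Of 10 markers of oligodendrocyte precursors, which also divide, 5 rose and 2 fell from P7 to P60, 1 fell from P60 to 3m, and 5 rose and none fell from 3m to 18m. In library 4 of 3m this list had a mean of 4.93, against 2.73 to 4.0 in the other 3m libraries. That library was also the highest of its age in the means of ependymal (8.31), stem and transit-amplifying (5.26) and neuroblast (2.27) markers. It was the lowest of its age in that of astrocyte markers (9.10). Endothelial markers, 10 genes, fell in 6 cases from P7 to P60 and rose in 3 from P60 to 3m. Ependymal markers, 6 genes, all rose from P7 to P60, were all higher at 3m than at P7 and all fell from 3m to 6m. Of 5 tested neuroblast markers 4 were higher at 3m than at P7, and 2 fell from 3m to 6m. Of all 14590 genes tested, 2119 were higher at 3m than at P7. Of 10 astrocyte markers 5 fell and 1 rose from 3m to 18m. These counts stand beside 33.3% lower and 19.5% higher over all genes in P60 vs P7, and 8.26% higher and 1.93% lower in 3m vs P60. The shares were 7.25% lower in 6m vs 3m, and 33.4% lower and 4.16% higher in 18m vs 3m. No defining marker of these lists was at 0 in all libraries of an age. Of the 9 neuroblast markers with values, however, 5 averaged under 1 TPM at P7, at 3m and at 6m. Bulk RNA does not show which cells, astrocytes included, expressed these markers. The part of other cells in the members' levels was not tested.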

How the data were processed

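RNA of astrocytes isolated with magnetic beads was extracted with Direct-zol, turned into cDNA with SMART-Seq v4 and sequenced on a NovaSeq, per the labels' protocols. Tools listed in the submitters' processing notes are RSEM 1.2.28, DESeq2 1.36.0, STAR 2.7.1a and Trim Galore 0.6.4, with the build mm10. Their roles are not given in the sources used here. The authors deposited TPM per gene, which sum to 1000000 in each library and keep no read depth, so counting error cannot be given.

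From these values log2(TPM + 1) was computed, which understates changes of low genes. Genes reaching 1 TPM in 3 or more libraries (14590) entered limma 3.58.1 (trend and robust, R 4.3.3), fitted with 1 mean per age over all 34 libraries. P-values were adjusted by Benjamini-Hochberg over all genes tested and called at 0.05. The script was tested on simulated data. Alternatives were other pseudocounts, filters and scalings, the count of genes at 0 as a covariate, a replicate block, only the ages compared, and each library left out in turn. The members and lists were chosen with earlier results of these data known. Values per library, at the ages of the comparisons described rather than at all 9, are given for the member of highest mean TPM in each of the 7 role lists plus Mki67, Top2a, Aurkb and Rrm2. Also named are members at the ends of a comparison's fold range or called unlike most of their list, the 3 genes of smallest p in each other pathway list, and the 10 genes most like each class mean. Birc5, Ccnb2 and the pathway genes that moved against the rest were chosen after their values were seen. Gene positions are from GENCODE (GRCm38) and promoters from RefSeq (GRCm38.p6).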

Additional observations from a re-analysis of the deposited data

Results flagged for a closer look

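The values checked were 13, the TPM of named members and the mean levels of the mitotic and replication genes. Among 65 groups of 4 or 5 libraries of an age, 4 held a library set far apart from the others. Chance gives about 1 in 20 for a single group, but these values are correlated over libraries, so the groups are not independent. Ube2c was at 27.5 TPM in library 4 of 6m and between 10.4 and 11.8 in the other 4. Prc1 was at 25.6 TPM in library 4 of 3m and between 13.2 and 14.9 in the others. Top2a was at 14.8 TPM in that same library and between 9.06 and 10.6 in the others. Cenpa was at 8.74 TPM in library 2 of P14 and between 10.9 and 11.0 in the others.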

How the results depend on the processing

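Where a named member was called in the main or in an alternative run, its fold change did not reverse. Members called in neither run, and runs with a library left out, were not checked for this. Counts of members called moved by more than 1.5 times as follows, with the share over all genes given only where stated above. With the count of genes at 0 as a covariate, 27 rose in 3m vs P60, and 6 fell in 18m vs 3m, 0 in 18m vs 6m, 1 in 18m vs 12m, 2 in 3m vs P7 and 16 in P21 vs P14. With median-of-ratios scaling 14 fell in 18m vs 6m, 3 in 18m vs 12m and 1 in 12m vs 6m, and 1 rose in 18m vs 3m. With quantile scaling 21 fell in P21 vs P14 and 1 rose in 18m vs P60. With only the ages compared, 21 fell in P21 vs P14 and 1 in 6m vs 3m. Median-of-ratios scaling moved the median of all genes from -0.24 to -0.02 in 18m vs 3m. The cause was not tested. Leaving out 1 library at a time gave 29 to 43 falls in P14 vs P7 (29 without P7 library 4), 0 to 5 in P21 vs P14, 51 to 52 in P60 vs P7, 36 to 44 in 6m vs 3m and 44 to 47 in 18m vs 3m, and 42 to 46 rises in 3m vs P60 and 0 to 1 in 18m vs P60. Without library 3 of 12m, 3 fell in 12m vs 6m and 0 in 18m vs 12m. Over 119 pairs of same-numbered libraries, deviations from the age means had a mean r of 0.00226. Single pairs ran from -0.44 to 0.461 and 26 were over 0.1, so some pairs may deviate together. With the replicate block 13 fell in 18m vs 12m and 22 in 18m vs P14.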
